A study of Mus musculus with 24 samples.

Results

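Genes of epithelial keratins and of epithelial junctions are described here in mouse mammary tumors and mammary cancer cell lines in which pleiotrophin (PTN), a secreted growth factor, was inhibited. The genes were chosen by symbol, as Krt7, Krt8, Krt18, Krt19, Epcam, Cdh1, Cldn3, Cldn4, Cldn7 and Sfn, and all 10 were among the 12091 genes of the table. RNA was sequenced from 24 samples in 4 experiments, each with 3 control and 3 PTN-inhibited samples, and the question here is whether these genes differed with PTN inhibition in each experiment. In the tumor experiments PTN was blocked with an antibody, and in the cell experiments Ptn was lowered with an shRNA.

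4T1 is a mouse triple-negative mammary carcinoma line, and its cells were placed in the fourth mammary fat pad of female BALB/c mice that were 8 wk old. These mice received either C44, a mouse IgG control, or 3B10, a mouse monoclonal antibody to PTN, each at 15 mg/kg 2 times a week once the tumors were palpable. MMTV-PyMT tumors arise in transgenic FVB/N mice that carry polyoma middle T antigen under the mouse mammary tumor virus promoter. These mice received the same antibodies and dose from 8 wk of age, and their tumors were taken at 12 wk. E0771 is a C57BL/6 mammary adenocarcinoma line, and E0771-LG was derived from a lung metastasis of E0771. Both lines were grown in culture after lentiviral infection and puromycin selection, either with shPTN, a single shRNA construct against Ptn, or with shCtrl, a vector whose sequence targets EGFP. The shPTN and shCtrl cells were selected as separate populations, so the shRNA and any difference that arose in selection cannot be told apart. The study's methods state 3 biological replicates, but the labels do not say which cell samples were separate cultures, so the p-values measure the spread between these samples.

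The deposited values are on the log2 scale. For MMTV-PyMT tumors and both cell lines, 18 samples in all, they were log2 CPM (read counts scaled to library size, per M reads), and the reads behind them could be recovered, with 15.63 to 21.12 M reads on genes in a sample (median 18.24). By group this range was 16.61 to 20.42 M in E0771 shCtrl, 15.63 to 19.32 M in E0771 shPTN, 17.3 to 19.59 M in E0771-LG shCtrl, 17.43 to 21.12 M in E0771-LG shPTN, 18.76 to 19.25 M in MMTV-PyMT C44 and 16.26 to 18.44 M in MMTV-PyMT 3B10. Each C44 library of the MMTV-PyMT tumors was larger than each 3B10 library, and the part of depth in the results was not tested. The 4T1 values are on a scale of their own that the labels do not explain, and their depth is unknown. The log2 ratio of 4T1 C44 to MMTV-PyMT C44 values decreased with log2 exon length over 10659 genes (slope −0.80), unlike that of E0771 shCtrl to MMTV-PyMT C44 (slope 0.05 over 9859 genes), so the 4T1 values are taken here as normalized for gene length, for which the slope would be −1. Levels in 4T1 tumors were compared only within that experiment. Differences are inhibited minus control in log2, and a gene was called at an adjusted p under 0.05 by limma over all genes tested in the experiment.

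Keratins form intermediate filaments from pairs of a type II and a type I protein, and in simple epithelia, including the luminal cells of the mammary gland, the main pair is keratin 8 with keratin 18, joined by keratin 7 and keratin 19. Epcam and Cdh1 (E-cadherin) join neighbouring epithelial cells, claudins form the seal of the tight junction, and Sfn is the epithelial 14-3-3 protein. Loss of such genes and gain of mesenchymal genes is known as the epithelial-mesenchymal transition, in which Zeb1 and Snai1 repress Cdh1 and other epithelial genes through E-box motifs.

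Among the type II keratins, Krt7 lies at chr15:101411043-101430313 on the plus strand of GRCm38 and Krt8 (ENSMUSG00000049382) at chr15:101996698-102004482 on the minus strand. Of the type I keratins, Krt18 (ENSMUSG00000023043) lies at chr15:102028180-102032027 on the plus strand and Krt19 at chr11:100140810-100148665 on the minus strand. Krt8 and Krt18 are neighbours on opposite strands, 23.7 kb apart with 0 annotated genes between them, whereas the other type I keratins of the mouse lie on chromosome 11. Epcam (ENSMUSG00000045394) lies at chr17:87635979-87651129 and Cdh1 (ENSMUSG00000000303) at chr8:106603351-106670246, both on the plus strand. Cldn4 (chr5:134945119-134946934) and Cldn3 (chr5:134986214-134987472) are also neighbours on opposite strands, 39.3 kb apart with 0 annotated genes between them. Cldn7 lies at chr11:69964779-69967885 and Sfn (ENSMUSG00000047281) at chr4:133600556-133602168. Krt7, Krt8 and Cldn3 each overlap an annotated noncoding gene on the other strand, and since the strand of counting is not stated, reads of the pair cannot be told apart.

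The promoters of Krt8, Krt18 and Epcam are shown because these are the members called in E0771-LG cells, a choice made from these data. The sequences are from RefSeq (build GRCm38.p6), run from 250 bases before to 50 bases after a RefSeq start of the gene, and are written 5′ to 3′ on the gene's strand. The capitals mark CACCTG or its reverse complement CAGGTG, an E-box that ZEB and SNAIL proteins are known to bind, searched on both strands.
Krt8, chr15:102004293-102004592, minus strand: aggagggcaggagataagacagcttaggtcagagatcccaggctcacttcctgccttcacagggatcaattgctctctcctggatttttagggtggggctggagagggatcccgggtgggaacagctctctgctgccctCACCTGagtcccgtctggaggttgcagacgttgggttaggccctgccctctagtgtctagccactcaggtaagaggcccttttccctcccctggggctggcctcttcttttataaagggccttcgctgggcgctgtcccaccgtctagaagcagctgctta
Krt18, chr15:102027966-102028265, plus strand: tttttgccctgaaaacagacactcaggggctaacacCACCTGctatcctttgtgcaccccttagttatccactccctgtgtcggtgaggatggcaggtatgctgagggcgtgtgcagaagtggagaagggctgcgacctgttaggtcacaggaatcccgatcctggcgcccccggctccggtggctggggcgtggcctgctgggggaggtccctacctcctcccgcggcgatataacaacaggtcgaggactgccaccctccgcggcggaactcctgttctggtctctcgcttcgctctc
Epcam, chr17:87635729-87636028, plus strand: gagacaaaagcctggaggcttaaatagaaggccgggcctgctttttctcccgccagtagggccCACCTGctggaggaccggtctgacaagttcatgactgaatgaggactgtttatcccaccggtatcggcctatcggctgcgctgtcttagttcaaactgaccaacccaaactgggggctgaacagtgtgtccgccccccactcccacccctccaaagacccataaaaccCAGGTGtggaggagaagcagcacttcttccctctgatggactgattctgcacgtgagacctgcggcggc
Counted in bases from the RefSeq start, the motif begins at −111 in Krt8, at −214 in Krt18, and at −187 and −19 in Epcam. The RefSeq start lies 140 bases after the GENCODE start given above in Krt8, so that the motif of Krt8 falls inside the annotated gene, 36 bases after it in Krt18, and at the same base in Epcam. RefSeq promoters were found for 8 of the 10 members, that is, not for Krt19 and Cdh1, and each of the 8 held the motif in at least 1 window (8 of 9 windows, since Cldn7 has a window without it). Of all 32851 promoter windows of this length, 6640 held it (20.2%). These are matches of letters, not measured binding sites, and no value here measures binding.

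The members were well expressed in the tumors, and most of them were near 0 reads in the cell lines. In the tumors all 10 were expressed highly enough to be tested, whereas in the 12 cell samples Krt8 and Epcam alone passed the filter on low values in every comparison. Per kb of exon length, the order in MMTV-PyMT C44 tumors began with Krt8 at 749 CPM per kb, Krt18 at 703 and Epcam at 566, which overlapped in their spread over samples. Cldn3 (358 to 441 CPM per kb), Krt19 (mean 211), Cdh1 (129), Cldn7 (111) and Cldn4 (87) came next, each overlapping its next neighbour except that Cldn4 lay above Sfn (50.7), and Krt7 was lowest (20.3). In 4T1 C44 tumors, on their own scale and if it is per length, Krt18 was highest at 2024, above Krt8 at 931. Epcam (316) and Cldn4 (282) came next and overlapped, as did Krt7 (94.8) and Cdh1 (81.2), Cldn3 (38.8) and Cldn7 (33.5), and Krt19 (21.5) and Sfn (16.7) within their pairs.

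In E0771 shCtrl cells the order was Krt8 at 50.3 CPM per kb, Epcam at 3.46 and Sfn at 0.593, and these did not overlap. Below them Krt18 (0.102 CPM per kb), Cldn7 (0.0759) and Cdh1 (0.0526) overlapped. In E0771-LG shCtrl cells the order was Krt8 (81.4 CPM per kb), Epcam (6.66), Krt18 (0.587) and then Sfn (0.142), which overlapped Cldn7 (0.101). Cldn3 and Cldn4, the most abundant of the claudins among the members in MMTV-PyMT and 4T1 tumors in that order, had 0 reads in all 12 cell samples, which allows up to 3 reads in a library, or 0.142 to 0.192 CPM. Krt19 had 0 reads in 9 of the 12. In the shCtrl cells of both lines, the members other than Krt8 and Epcam had at most 20 reads in a sample. Read limits and intervals here cover counting error alone.

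Ptn was lowered in both shPTN lines. In E0771 cells it had 128, 92 and 80 reads in shCtrl and 12, 21 and 22 in shPTN, and in E0771-LG cells 216, 446 and 248 in shCtrl and 56, 35 and 45 in shPTN. Each shPTN sample lay below each shCtrl sample of its line. Ptn fell by 2.40 in E0771 (SE 0.37, adjusted p = 0.00159) and by 2.71 in E0771-LG (SE 0.28, adjusted p = 6.3e-05). In MMTV-PyMT tumors Ptn had 133, 127 and 201 reads with C44 and 158, 142 and 303 with 3B10, which overlap, and the antibody acts on the protein. In 4T1 tumors its log2 values were −0.19, −0.65 and −0.12 with C44 and −0.76, 0.86 and 0.37 with 3B10, too low to be tested.

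In E0771-LG cells, knockdown of Ptn came with more RNA of the simple-epithelial keratin pair. Krt8 rose 2.97-fold and Krt18 rose 7.99-fold, and Epcam rose 1.37-fold, in each case with all 3 shPTN samples above all 3 shCtrl samples, as in 30.5% of the genes tested. The other 7 members had too few reads to be tested. Of the 3 members tested 3 were called, where 46.4% of the 10405 genes tested were called, so a call by itself was common in this comparison. Krt18 counts among the 3 although it entered the test through the shPTN samples alone, which leaves Krt8 and Epcam to set against this share.

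Krt8, the type II keratin, had 143, 187 and 148 CPM in shCtrl and 393, 538 and 489 CPM in shPTN (2470, 3667 and 2760 against 8309, 9716 and 8516 reads). The shPTN samples were all high, and the lowest of them was above the highest shCtrl sample by more than the range within either group. The difference was 1.57 (SE 0.14, 95% interval 1.26 to 1.87, adjusted p = 3.88e-05), and by p-value Krt8 ranked 70 among the genes tested.

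Krt18, the type I partner, had 13, 18 and 16 reads in shCtrl and 117, 150 and 125 reads in shPTN, or 0.752, 0.919 and 0.86 against 5.54, 8.31 and 7.17 CPM. Its groups lay far apart with little spread within each. The difference was 3.00 (SE 0.32, 95% interval 2.29 to 3.71, adjusted p = 8.07e-05). Krt18 passed the filter on low values through the shPTN samples alone, so its call is a description, and when any shPTN sample was left out it was not tested. With a pseudocount of 1 added to the CPM its difference was 2.10.

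Epcam, the epithelial cell adhesion molecule, had 14.2, 15.7 and 14 CPM in shCtrl and 24.2, 17.3 and 19.3 CPM in shPTN. Replicate 1 of shPTN was the highest, and the lowest shPTN sample was close to the highest shCtrl sample. The difference was 0.46 (SE 0.16, 95% interval 0.10 to 0.82, adjusted p = 0.0381). The call of Epcam was lost without replicate 1 of shPTN (0.32, adjusted p = 0.14), replicate 3 of shPTN (0.49, 0.0801), replicate 1 of shCtrl (0.44, 0.058) or replicate 3 of shCtrl (0.43, 0.109), and with quantile normalization (0.34, 0.107).

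Among the members too low to test, Krt19 had 0 reads in each shCtrl sample and 5, 4 and 1 reads in shPTN, and Cldn7, a claudin, had 3, 4 and 4 reads in shCtrl and 0 in each shPTN sample. These counts lie around the limit of 3 reads, and no fold is given. Krt7 had 11 reads in all in shCtrl and 14 in shPTN, a ratio of rates of 1.25 (95% counting interval 0.526 to 3.04). Cdh1, the E-cadherin gene, had 7 and 12 (ratio 1.68, 0.61 to 5.04) and Sfn 13 and 14 (ratio 1.06, 0.46 to 2.44), all intervals that include no difference. E-cadherin RNA had 0 to 7 reads in each E0771-LG sample.

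**Figure D1:**
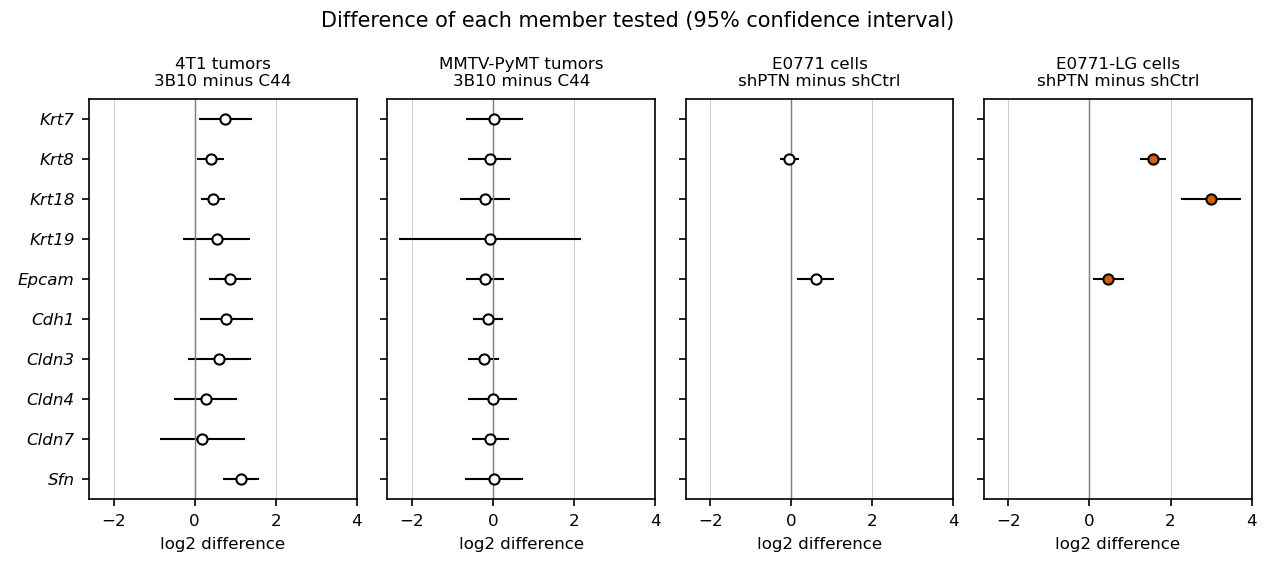
Log2 difference, PTN-inhibited minus control, of each member tested in the 4 experiments, with its 95% interval; filled orange points passed an adjusted p under 0.05 by limma. Krt18, Krt8 and Epcam in E0771-LG cells are the called members, and in 4T1 tumors all points lie above 0.

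The keratin pair stayed unbalanced in the E0771-LG cells. Per length, the ratio of Krt8 to Krt18 was 139, 150 and 127 in shCtrl and 52.1, 47.5 and 50 in shPTN, so the ratio was lower in each shPTN sample. Krt18 made up 7.6, 7.57 and 10.5% of the type I keratin RNA in shCtrl and 27.1, 25.2 and 26.2% in shPTN, among the 6 type I keratins of the table. The most abundant type I keratin in each of the 12 cell samples was Krt20, which averaged 5.78 CPM per kb in E0771-LG shCtrl and 12.2 in E0771-LG shPTN. In E0771 it averaged 0.155 CPM per kb in shCtrl and 0.244 in shPTN, so its rank there rests on few reads. Across all type II and type I keratins of the table the ratio was 11.2, 11.7 and 13.9 in shCtrl and 14.4, 12.1 and 13.3 in shPTN, ranges that overlap. In the tumors the ratio of Krt8 to Krt18 was 0.425 to 0.484 in 4T1 (on its own scale, taken as per length) and 0.943 to 1.35 in MMTV-PyMT samples.

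**Figure D2:**
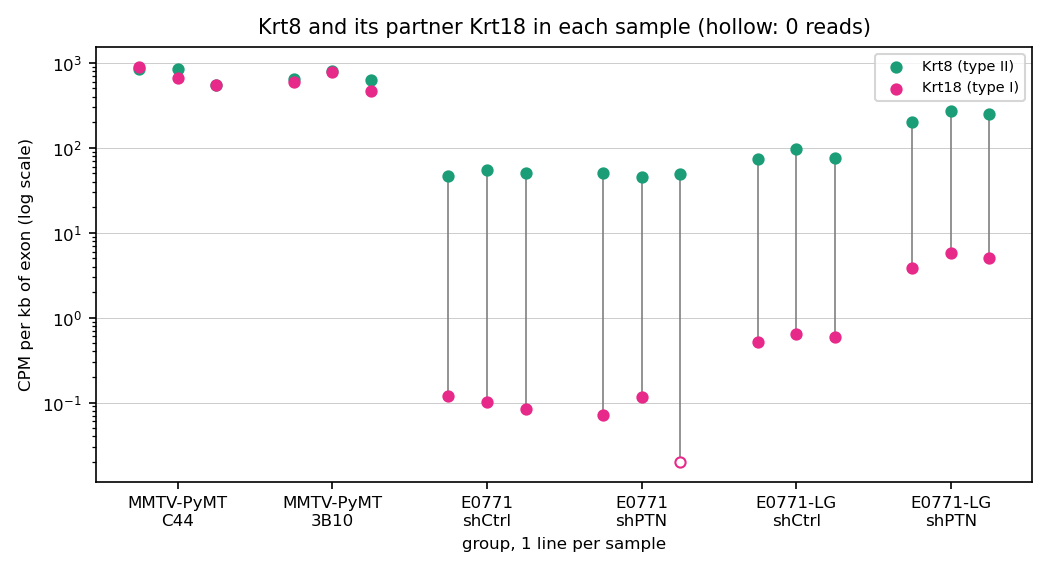
CPM per kb of Krt8 and Krt18 on a log axis in the 18 samples with recovered reads, joined within a sample; hollow points had 0 reads and are drawn at the bottom of the axis. In MMTV-PyMT tumors the genes are at similar levels, and in the cell lines Krt18 lies far below Krt8, with the smallest gap of the cell groups in E0771-LG shPTN.

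Other epithelial genes in E0771-LG cells moved in both directions. The calls stand beside 46.4% called of all genes tested, so a call by itself was common. Of the other keratins 3 were tested and 2 were called, of which Krt20, an intestinal and urothelial type I keratin, rose by 1.07 (SE 0.23, adjusted p = 0.00347). The second, Krt17 (1.52), had under 1 CPM in each shCtrl sample and entered the test through the shPTN samples alone, so its call is a description. Of 4 desmosome genes 2 rose (Pkp3 by 0.91, Pkp2 by 0.48) and 1 fell (Evpl, −0.76), and of 11 other tight junction genes 1 rose (Ocln, which encodes occludin, by 1.94, SE 0.34, adjusted p = 0.00109) and 2 fell (Tjp1 by 0.58 and Pard3 by 0.53). Of 9 adherens junction genes 4 fell and 0 rose: Vcl, which encodes vinculin (−1.66, SE 0.12, adjusted p = 1.54e-05), Jup (−0.94), Ctnna1 (−0.55) and Afdn (−0.35). Of 3 epithelial surface genes 1 rose, the protease gene St14 (1.83, SE 0.35, adjusted p = 0.00718), and of 5 epithelial transcription and splicing factors 1 rose, Elf3 (1.75, SE 0.41, adjusted p = 0.00524). Of 7 repressors of epithelial genes and mesenchymal markers 3 fell, namely Zeb1 (−0.97, SE 0.12, adjusted p = 0.000151), Zeb2 (−0.64) and Vim (−0.35), and 1 rose, Twist1 (0.49). Of the 6 paralogs of Sfn 1 rose and 2 fell, with Ywhae at −0.76.

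Markers of other cell types also moved in the E0771-LG cultures, which are labelled as a single line. Levels of marker lists are sums in CPM per kb, and genes with 0 reads in all 6 samples are left out of the directions. Most leukocyte and endothelial markers were too low to be tested, so their directions depend on few reads and on the offset. Of 6 fibroblast markers with reads 5 had a lower mean in shPTN, their sums were 11.1, 17.3 and 12.5 in shCtrl and 6.11, 7.59 and 8.54 in shPTN, the most abundant was Pdgfra, and Thy1 was at 0. Of 7 myoepithelial markers 4 were lower, with sums of 27.4, 13.8 and 19.8 in shCtrl and 4.97, 5.5 and 4.29 in shPTN, led by Acta2. Of 8 leukocyte markers with reads 7 had a higher mean, with sums of 6.78, 11.1 and 11.1 against 12.8, 23.5 and 18.9, led by S100a8 in both groups, and Adgre1 was at 0. Endothelial markers summed to 55.3, 52.1 and 50.9 against 35.8, 37 and 36.3, with 5 of 6 means higher but the most abundant gene, Eng, lower. Eng alone made up nearly all of these sums (55.2, 51.6 and 50.5 against 35.2, 36.4 and 35.8). Of 4 muscle markers with reads 2 were higher and 2 lower (sums 3.97, 3.32 and 2.43 against 2.3, 3.13 and 3.11, led by Acta1 in shCtrl and Mylpf in shPTN, with Myh4 and Tnnc2 at 0). The adipocyte marker Fabp4 had 2.43, 4.08 and 2.68 against 0.264, 0.876 and 0.677. By the test, 2 leukocyte markers of 3 rose, and 1 of 2 endothelial, 2 of 5 fibroblast, 1 of 3 muscle, 1 of 1 adipocyte and 2 of 3 myoepithelial markers fell, while 1 fibroblast marker rose. Of all genes tested 46.4% were called. Col1a1, a fibroblast marker called as lower, was tested through the shCtrl samples alone (9.39 to 11.3 CPM, against 0.166 to 0.574 in shPTN). Their part in the results for the members was not tested, and in RNA from whole cultures or tumors fewer cells of a type and less RNA per cell cannot be told apart.

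In E0771 cells, knockdown of Ptn left Krt8 within the spread of the samples, and Epcam was higher but missed the threshold. Of the 2 members tested 0 were called, where 20.6% of the 10394 genes tested were called. At an unadjusted p under 0.05, 1 member passed, Epcam, as did 34.1% of the genes tested, and with voom weights on the recovered reads 0 were called as well.

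Krt8 had 90.4, 107 and 98.1 CPM in shCtrl and 100, 88.4 and 97.1 CPM in shPTN. The groups overlapped throughout. The difference was −0.05 (SE 0.09, 95% interval −0.26 to 0.16, adjusted p = 0.764), and it was 0.01 without replicate 2 of shCtrl and 0 without replicate 2 of shPTN.

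Epcam had 8.46, 6.32 and 8.01 CPM in shCtrl and 14, 10.2 and 10.4 CPM in shPTN (146, 129 and 133 against 271, 184 and 162 reads). All shPTN samples were above all shCtrl samples, as in 16.8% of the genes tested, with replicate 1 of shPTN the highest, as in E0771-LG. The difference was 0.60 (SE 0.20, 95% interval 0.16 to 1.03, adjusted p = 0.054), or 1.51-fold. It passed the threshold with median-of-ratios scaling (adjusted p = 0.0423), quantile normalization (0.0367), replicate number as a term (0.0408), a fit of all 18 CPM samples (0.0295), and without replicate 2 of shPTN (0.0418). It did not pass with the other filters, a pseudocount, eBayes that was not robust or voom weights (0.052 to 0.0775). Nor did it pass without any other sample (0.059 to 0.175). The difference was 0.45 without replicate 1 of shPTN and 0.47 without replicate 2 of shCtrl.

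Krt7, a keratin of ductal epithelia, had 1, 2 and 0 reads in E0771 shCtrl and 16, 12 and 23 reads in shPTN. It was near 0 in the controls and low but present in each shPTN sample, with no overlap. Summed over the groups this was 3 reads against 51, a ratio of rates of 17.4 (95% counting interval 5.63 to 87.2). Krt18 had 3, 3 and 2 reads in shCtrl and 2, 3 and 0 in shPTN (ratio 0.64, 0.165 to 2.22), so the increase of Krt18 in E0771-LG had no counterpart above the read limit here. Cldn7 had 8 reads in all in shCtrl and 1 in shPTN (ratio 0.128, 0.00289 to 0.955). Sfn had 16, 20 and 16 reads against 14, 15 and 20 (ratio 0.965, 0.64 to 1.45), Cdh1 had 13 reads in all against 14 (ratio 1.1, 0.481 to 2.55), and Krt19 had 0 in all 6 samples.

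Of the genes listed beside the members in E0771, 1 other keratin was tested and rose, Krt80 (1.28, SE 0.17, adjusted p = 0.00084). The calls in these lists stand beside 20.6% called of all genes tested. Of 10 other tight junction genes 2 rose and 1 fell: Cgnl1, which encodes paracingulin (2.12, SE 0.23, adjusted p = 0.000223), Cldn12 (0.52) and Pard6b (−0.54). Of 9 adherens junction genes 1 rose (Nectin1, 0.29), and of 3 desmosome and 5 epithelial surface genes 0 were called. Of 6 epithelial factors 2 were called, namely Tfap2a, which rose by 0.59, and Trp63 (2.10). Trp63 is near the limit of the filter, with 0.12 to 0.406 CPM in shCtrl and 1.02 to 1.16 in shPTN, so it entered the test through shPTN alone and its call is a description. Of 7 repressors and mesenchymal markers 2 rose, Snai1 (1.23, SE 0.18, adjusted p = 0.00119) and Twist2 (0.50). Of the 6 paralogs of Sfn 1 fell, Ywhae (−0.48).

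Fibroblast and myoepithelial markers were higher in E0771 shPTN. Of 7 fibroblast markers 6 had a higher mean, with sums of 8.96, 11.9 and 10.2 CPM per kb in shCtrl, led by Pdgfra, and 36.7, 33.4 and 36.9 in shPTN, led by Col3a1, and 4 of 4 tested rose. Of 6 myoepithelial markers with reads 5 were higher (19.2, 12 and 14.9 against 63.9, 97.1 and 66.4, led by Acta2, with Krt5 at 0), and 2 of 3 tested were called as higher, of which 1 is the same Trp63. Of 7 leukocyte markers with reads 4 were higher and 3 lower (15.3, 25.3 and 21.5, led by Cd68, against 43.6, 25.1 and 33.8, led by Lyz2, with Cd3e and Itgam at 0), and 1 of 3 tested rose. Muscle markers summed to 2.05, 2.7 and 4.32, led by Mylpf, against 4.71, 3.62 and 4.51, led by Des (3 of 5 with reads higher, Myh4 at 0, 1 of 2 tested rose). Endothelial markers summed to 49.6, 54.6 and 50 against 48.7, 54.4 and 52.9 (4 of 5 with reads higher, led by Eng, Cldn5 at 0, 0 called). Fabp4 had 0.258, 0.262 and 0.443 against 0.519, 0.0617 and 0.47 (not called). The part of these markers in the values of Krt7 and Epcam was not tested. Of all genes tested in E0771 20.6% were called. Most leukocyte and endothelial markers were too low to be tested, so their directions depend on few reads and on the offset.

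The effect, here shPTN minus shCtrl with any difference that arose in selection, differed between the lines for Krt8. The test of the difference, E0771-LG minus E0771, covered 3 members and called 2, where 34.0% of the 10600 genes tested were called. For Krt8 the effects were −0.05 and 1.57, and their difference was 1.62 (SE 0.18, 95% interval 1.24 to 1.99, adjusted p = 2.6e-05). For Krt18 the difference was 3.90 (SE 0.92, 95% interval 1.93 to 5.87, adjusted p = 0.00543), which is a description, since Krt18 entered this fit through the E0771-LG shPTN samples alone and was not tested when any of them was left out. With 0 to 3 reads in each E0771 sample its size depends on the offset, and it was 2.18 with a pseudocount of 1 added to the CPM. For Epcam the effects of 0.60 and 0.46 differed by −0.14 (SE 0.26, 95% interval −0.68 to 0.41, adjusted p = 0.705), less than the error, and by 0.01 without replicate 1 of E0771 shPTN. Ptn itself differed by −0.30 (SE 0.48, adjusted p = 0.651).

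Among the listed genes, this difference was called for Krt80 (−1.34) as 1 of 3 other keratins, and for 2 higher and 2 lower of 13 other tight junction genes, with Ocln (1.43) and Cgnl1 (−2.10) the farthest apart. All 4 called adherens junction genes of 9 had a lower effect in E0771-LG, led by Vcl (−1.52) and Jup (−1.06). Of 4 desmosome genes 2 were higher and 1 lower, with Pkp3 at 1.20 and Evpl at −1.25, and of 5 epithelial surface genes 1 was higher, St14 (1.70, adjusted p = 0.00618). Of 7 repressors and mesenchymal markers 3 were lower, namely Snai1 (−0.82), Zeb1 (−0.69, SE 0.19, adjusted p = 0.0139) and Zeb2 (−0.58). Of 7 epithelial factors and 6 paralogs of Sfn 0 were called. Of all genes tested for this difference 34.0% were called. Of the cell type markers, 1 leukocyte marker of 3 was higher and 1 lower, 1 of 2 endothelial, 1 of 3 muscle and 2 of 4 myoepithelial markers were lower, 4 of 5 fibroblast markers were lower and 1 higher, and Fabp4 was not called.

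Without knockdown the lines already differed in the members. E0771-LG shCtrl cells had more Krt8, more Epcam and more Krt18 reads than E0771 shCtrl cells, and fewer Sfn reads. These shCtrl samples are also the controls of the knockdown comparisons, so the values are given side by side and not combined. Of the 2 members tested 2 were called, where 54.5% of the 10411 genes tested were called (2004 higher and 3672 lower in E0771-LG, against 2847 and 2831 with median-of-ratios scaling). The median difference of all genes was −0.15, and scaling by median of ratios or by quantiles shifted it by 0.15.

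Krt8 rose by 0.69 from E0771 to E0771-LG shCtrl (SE 0.12, 95% interval 0.42 to 0.96, adjusted p = 0.000993), and by 0.84 with median-of-ratios scaling. Its E0771 values of 90.4 to 107 CPM and E0771-LG values of 143 to 187 CPM do not overlap, and 23.4% of the genes tested were likewise higher without overlap. Epcam rose by 0.95 (SE 0.18, 95% interval 0.56 to 1.35, adjusted p = 0.00131), and by 1.10 with median-of-ratios scaling, from 6.32 to 8.46 CPM up to 14 to 15.7 CPM. Krt18, not tested, had 8 reads in all in E0771 and 47 in E0771-LG, a ratio of rates of 5.75 (95% counting interval 2.69 to 14.1). Sfn, the epithelial 14-3-3 gene, had 52 reads in all in E0771 and 13 in E0771-LG (ratio 0.245, 0.122 to 0.456), with 16 to 20 reads in an E0771 sample and 2 to 8 in an E0771-LG sample. Krt7 had 3 against 11 reads (ratio 3.59, 0.948 to 20), Cdh1 13 against 7 (ratio 0.527, 0.178 to 1.42) and Cldn7 8 against 11 (ratio 1.35, 0.493 to 3.85), with intervals that include no difference.

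Of the listed genes, 1 of 2 other keratins, 1 of 3 desmosome genes (Evpl, 1.94), 1 of 5 epithelial surface genes (St14, 1.12), 2 of 5 epithelial factors (Tfap2a at 1.05 and Klf5 at 0.69) and 3 of 7 repressors and mesenchymal markers were higher in E0771-LG shCtrl. Of 10 other tight junction genes 2 were higher and 3 lower, with Cldn12 at 1.06 and Pard6b at −1.71, of 9 adherens junction genes 2 were lower, with Nectin1 at −1.10, and 1 desmosome gene (Pkp2, −0.42), 1 surface gene and 1 factor (Elf3, −1.26) were lower. Of the 6 paralogs of Sfn 1 was higher and 1 lower (Ywhae at 0.27 and Ywhab at −0.29), whereas Sfn had fewer reads in each E0771-LG sample. Of the cell type markers, 2 leukocyte markers of 3 were lower, 2 of 4 fibroblast markers were higher and 2 lower, 2 of 3 myoepithelial markers were higher, 1 of 3 muscle markers was higher and 1 lower, Fabp4 was higher (3.24), and the endothelial marker tested was not called. Among all these calls, Krt20, F11r, Patj, Muc1, Mylpf, Acta1 and Cnn1 had under 1 CPM in every sample of the lower line, so they entered the test through the higher line alone and are descriptions. The calls stand beside 54.5% called of all genes tested between the shCtrl lines.

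In 4T1 tumors the mean of each of the 10 members was higher with 3B10 than with C44, but 0 were called. With all tumors the largest differences were in Sfn, Epcam, Cdh1 and Krt7, and those of the keratin pair were smaller with less spread. This order depended on replicate 2 of 3B10. Without it Krt7 was at 0.46, below Krt8 (0.49) and Krt18 (0.51), and Cldn7 and Cdh1 were each at 0.73. The median difference of the members was 0.58, against 0.01 over all 11467 genes tested, of which 51.6% had a higher mean. By limma 0% of the genes tested were called, with a smallest adjusted p of 0.334, and at an unadjusted p under 0.05 there were 6 members (Krt7, Krt8, Krt18, Epcam, Cdh1 and Sfn) and 6.27% of genes. In 5 members (the same without Cdh1) all 3B10 tumors were above all C44 tumors, as in 6.87% of genes. voom could not be run, as the reads of these tumors are not known.

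Krt8 had log2 values of 9.89, 9.89 and 9.81 with C44 and 10.24, 10.08 and 10.48 with 3B10, a difference of 0.40 (SE 0.13, adjusted p = 0.725). Krt18 had 10.93, 10.99 and 11.03 with C44 and 11.41, 11.31 and 11.58 with 3B10, a difference of 0.45 (SE 0.12, adjusted p = 0.722). In both genes of the pair, the C44 tumors lay close together, the 3B10 tumors were higher and more spread, and replicate 3 of 3B10 was the highest. Krt7 had 6.26, 6.71 and 6.71 with C44 and 6.83, 7.92 and 7.20 with 3B10 (0.76, SE 0.27, adjusted p = 0.725). Krt19 ranged from 3.92 to 4.67 with C44 and from 4.37 to 5.64 with 3B10, and the ranges overlap (0.55, SE 0.34, adjusted p = 0.889). Its difference was 0.21 without replicate 2 of 3B10 and 0.30 without replicate 3 of C44.

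Epcam had log2 values of 7.82, 8.42 and 8.57 with C44 and 9.34, 9.21 and 8.88 with 3B10. The lowest 3B10 tumor was above the highest C44 tumor, and the difference was 0.87 (SE 0.22, 95% interval 0.37 to 1.37, adjusted p = 0.722). Cdh1 had 5.83, 6.86 and 6.18 with C44 and 7.30, 7.19 and 6.74 with 3B10, where replicate 2 of C44 lies above the lowest 3B10 tumor (0.78, SE 0.27, adjusted p = 0.725). Among the claudins, Cldn3 ranged from 5.09 to 5.51 with C44 and from 5.13 to 6.50 with 3B10 (0.61, SE 0.33, adjusted p = 0.856). Without replicate 1 of 3B10 its difference was 0.30. Cldn4 differed by 0.27 (SE 0.32, adjusted p = 0.958), which became −0.10 without replicate 2 of 3B10. Cldn7 differed by 0.19 (SE 0.44, adjusted p = 0.98), which became −0.22 without replicate 1 of 3B10. All 3 claudins overlapped between the groups, unlike Epcam.

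Sfn had log2 values of 4.23, 4.01 and 4.05 with C44 and 4.91, 5.30 and 5.50 with 3B10. The C44 tumors lay within a narrow range and each 3B10 tumor was above it. The difference was 1.14 (SE 0.18, 95% interval 0.72 to 1.56, adjusted p = 0.375), or 2.2-fold, and by p-value Sfn ranked 9 among the genes tested. Its 6 paralogs had a median difference of 0.16.

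Of the marker sums of other cell types in these tumors, those of leukocyte and muscle markers did not overlap between the groups, the others did, and 0 markers were called. All 9 leukocyte markers had a lower mean with 3B10, with summed levels on the 4T1 scale of 9519, 6625 and 8799 with C44 and 3510, 6426 and 4077 with 3B10, led by Lyz2. These sums were only narrowly apart. Lyz2, most of each sum, had 8310, 5427 and 7250 with C44 and 2560, 5577 and 3409 with 3B10, which overlap. The summed levels of the members were 3570, 3990 and 3959 with C44 and 5334, 5322 and 5603 with 3B10, led by Krt18. All 6 muscle markers had a higher mean (16.5, 17.8 and 31.7 against 49.4, 215 and 355, led by Tnnt3), and all 6 endothelial markers a lower one (208, 403 and 261 against 226, 339 and 172, led by Eng). Of 7 fibroblast markers 5 were higher (1211, 1700 and 1161 against 1030, 3493 and 1603, led by Col1a1), and of 7 myoepithelial markers 4 were higher (236, 343 and 120 against 359, 480 and 236, led by Acta2). The adipocyte marker Fabp4 had 9.58, 34.5 and 34.9 against 22.3, 28.2 and 18.5. No marker of these lists was at 0 in the 4T1 tumors, and their part in the members' values was not tested.

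**Figure D3:**
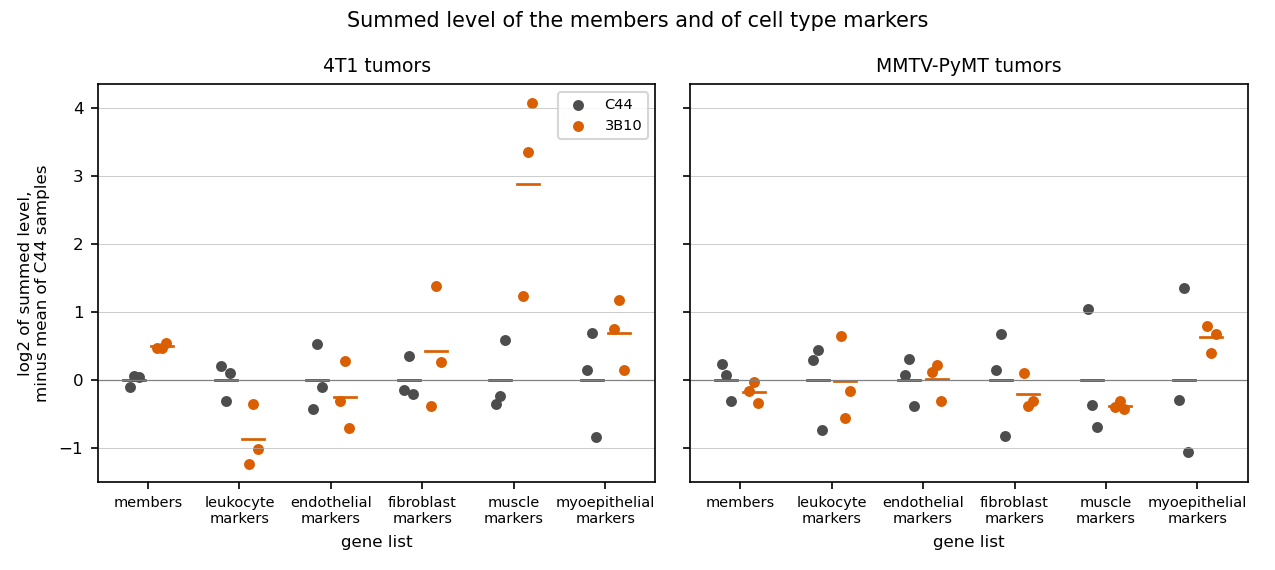
Log2 of the summed level of the members and of 5 marker lists in each tumor, relative to the mean of the C44 tumors of the same model, for 4T1 (deposited scale) and MMTV-PyMT (CPM per kb). In 4T1 the members lie above 0 in all 3B10 tumors and the leukocyte markers below it, and in MMTV-PyMT the groups overlap for the members.

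Among the other listed epithelial genes 0 were called in 4T1 tumors. Their median differences were 0.26 for other keratins, 0.08 for other tight junction genes, 0.04 for adherens junction genes, 0.22 for desmosome genes, 0.23 for epithelial surface genes, and 0.28 for epithelial factors. The members' median of 0.58 was above that of each of these lists, a description without a test. Among the repressors and mesenchymal markers 0 were called as well, with a median of 0.23.

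In MMTV-PyMT tumors the values with 3B10 and C44 overlapped in each member, and 0 members were called. The mean was lower in 8 and higher in 2 (Krt7 and Sfn, each by 0.03, which became −0.02 with median-of-ratios scaling). The median difference of the members was −0.07, against 0.05 over all 11361 genes tested, of which 61.0% had a higher mean. By limma 0% of the genes tested were called and each member had an adjusted p of 1. At an unadjusted p under 0.05 there were 0 members and 307 genes (2.70%), and voom called 0 genes with 309 at an unadjusted p under 0.05. Of the 10 members 0 had all 3B10 tumors below all C44 tumors, as 2.27% of genes did. Leaving out a tumor turned the sign in Krt7, Krt8, Krt18, Krt19, Cldn4, Cldn7 and Sfn, so their directions counted above depend on single tumors.

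Krt8 had log2 CPM of 10.70, 10.69 and 10.08 with C44 and 10.32, 10.63 and 10.28 with 3B10, and Krt18 had 10.34, 9.89 and 9.62 with C44 and 9.76, 10.12 and 9.40 with 3B10. Both ranges overlap widely, with differences of −0.08 (SE 0.22) and −0.19 (SE 0.25). Krt19 varied most, with 6890, 14762 and 903 reads in C44 and 3790, 6913 and 2167 reads in 3B10 tumors. The lowest and the highest tumor were both controls, and the interval of its difference, −2.28 to 2.15, allows large differences either way. Replicate 3 of C44 was the lowest of the 6 tumors in Krt7, Krt8, Krt19, Cldn7 and Sfn.

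Epcam had log2 CPM of 10.56, 10.03 and 10.19 with C44 and 10.14, 10.12 and 9.94 with 3B10, a difference of −0.20 (SE 0.19, 95% interval −0.63 to 0.24). The interval lies below the 0.87 seen in 4T1 tumors on their own scale, but the difference between the models was not tested. Cdh1 (−0.12, 95% interval −0.47 to 0.23) had little spread, from 8.89 to 9.27 over the 6 tumors. Cldn3 (−0.23), Cldn4 (−0.01) and Cldn7 (−0.06) had intervals that include 0, of which the widest was −0.58 to 0.56 in Cldn4. Sfn ranged from 5.55 to 6.71 with C44 and from 6.10 to 6.43 with 3B10.

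The summed levels of the members were 3520, 3140 and 2422 CPM per kb with C44 and 2682, 2934 and 2363 with 3B10, and the groups overlap. Leukocyte markers summed to 253, 278 and 123 CPM per kb with C44 and 322, 140 and 184 with 3B10 (3 of 9 higher, led by Lyz2), and fibroblast markers to 236, 341 and 121 against 229, 164 and 172 (1 of 7 higher, led by Col1a1). Endothelial markers summed to 32.1, 37.8 and 23.5, led by Eng, against 33.2, 35.8 and 24.6, led by Cdh5 (3 of 6 higher). Myoepithelial markers summed to 76.1, 239 and 45 against 163, 123 and 150 (4 of 7 higher, led by Krt14). Muscle markers summed to 15.9, 5.97 and 4.77, led by Acta1, against 5.84, 6.18 and 5.73, led by Mylpf (1 of 5 with reads higher, with Tnnc2 at 0), and Fabp4 had 3.37, 3.51 and 1.09 against 6.54, 2.55 and 1.26. Replicate 3 of C44, lowest in several members, was also lowest in the leukocyte, endothelial, fibroblast, muscle and myoepithelial sums. The part of these markers in the members' values was not tested. Over all lists with a test the median differences lay between −0.52 for muscle markers and 0.23 for Fabp4, and 0 genes were called.

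The mean of the members' log2 values summarises them per sample. In log2 it was 6.72, 7.04 and 6.93 with C44 and 7.56, 7.60 and 7.33 with 3B10 in 4T1 tumors, and 8.79, 8.69 and 8.07 against 8.48, 8.45 and 8.36 in MMTV-PyMT tumors. It is not given for the cell lines, where most members had few or no reads and their log2 values follow the offset and the library size, and the search of genes like it over the 12 cell samples is left out for this reason. By Pearson's r with this mean, the genes with the most similar pattern over the 6 4T1 tumors were Tmem54 (0.976), Wwc1 (0.973), Mboat1 (0.971), Riox1 (0.969) and Raly (0.967) of 11457 genes searched, and over the 6 MMTV-PyMT tumors Renbp (0.997), Agpat2 (0.992), Trp53 (0.989), Pttg1ip (0.989) and Galt (0.987) of 11351. These are descriptions of the highest values among many genes, the points fall into groups of 3 that share a treatment, and no gene was among the 5 in both searches.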

How the data were processed

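The table that the authors deposited holds log2 values of 12091 genes in 24 samples, from paired-end reads that were aligned to mm10 (GRCm38) with HISAT2 and counted per gene with featureCounts. For 18 samples the deposited values are log2 CPM (offset 0.5 reads), and whole reads were recovered from them (tolerance 0.05 reads). The 4T1 values are taken as normalized for gene length, from their slope on exon length, a check added after the data were seen. Each comparison was fitted by limma 3.58.1 in R 4.3.3 with lmFit and with trended, robust eBayes. Genes entered a fit when 3 or more of its samples had a linear value of 1 or more above the sample's lowest value. The p-values were adjusted by Benjamini-Hochberg over the genes in the fit. The difference between knockdowns was an interaction term. Exon lengths and positions are from GENCODE M21. Python 3.11.15 with numpy 2.4.6, pandas 2.3.3, scipy 1.17.1 and matplotlib 3.10.9 made the tables and plots. Counting intervals of read ratios are exact binomial intervals (Clopper-Pearson), given the total reads of both groups.

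The members and lists were chosen with earlier results of these data known. From each list a comparison names up to 4 called genes, those with the largest differences among called genes averaging 1 log2 CPM or more (besides Ocln and those that entered through a single group), and for pattern likeness the 5 genes with the highest r. The alternatives were filters, a pseudocount, scalings, eBayes that was not robust, voom weights, a replicate term, a fit of 18 samples, and leaving out each sample.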

Additional observations from a re-analysis of the deposited data

Results flagged for a closer look

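The effect on Krt8 (shPTN minus shCtrl) differed between the cell lines by 1.62 (log2, E0771-LG minus E0771). This test of the difference, with an adjusted p of 2.6e-05 in limma, is why it is listed here. The effect on Krt18 differed by 3.90 (adjusted p = 0.00543 in the same test), but this is a description, since Krt18 entered the fit through the E0771-LG shPTN samples alone, had 0 to 3 reads in each E0771 sample, and gave 2.18 with a pseudocount of 1. In Epcam the 3B10 differences of 0.87 in 4T1 and −0.20 in MMTV-PyMT tumors lay 1.07 apart, but neither was called (adjusted p = 0.722 and 1), and in MMTV-PyMT the groups overlap (10.03 to 10.56 with C44, 9.94 to 10.14 with 3B10). It is listed because each 3B10 tumor lay above the C44 mean in 4T1 and below it in MMTV-PyMT. That difference between the tumor models was not tested, and their values are on different scales.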

How the results depend on the processing

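With alternatives other than leaving out a sample or fitting the 18 CPM samples together (given below), the members' differences kept their direction and side of the threshold in 70 of 70 values in 4T1 tumors, 16 of 16 for E0771-LG against E0771 shCtrl and 24 of 24 for the difference between knockdowns. In E0771-LG cells this held for 23 values, and 1 lost its call (Epcam with quantile normalization). In E0771 cells it held for 13, and Epcam gained a call in 3. In MMTV-PyMT tumors it held for 77, and 3 turned sign: Krt7 to −0.02 and Sfn to −0.02 with median-of-ratios scaling, and Sfn to −0.01 with quantile normalization. The cause was not tested.

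Without a filter on low values, 2 members were called in E0771 instead of 0 (Krt7 and Cldn7), 5 in E0771-LG instead of 3 (also Krt19 and Cldn7), 4 for the difference between knockdowns instead of 2 and 4 between the shCtrl lines instead of 2, because more members were then tested. The added members had 0 or few reads in a group, so the size of their differences depends on the offset and is not given. A fit of all 18 CPM samples called 3 in E0771, Epcam among them, and 5 in E0771-LG. For the difference between knockdowns it called 3, with Krt7 added. In this fit all 10 members were tested, since the MMTV-PyMT tumors carried them past the filter. The members it added in the cells (Krt7 and Cldn7 in E0771, Krt19 and Cldn7 in E0771-LG) had 0 or few reads in a group. Their calls are descriptions. In E0771, 1 member was called with median-of-ratios scaling and 1 with quantile normalization. With a block for the replicate number, 1 was called in E0771. In no comparison was the correlation above 0.1 for every replicate number, but 3 samples in a group cannot exclude pairing.

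Leaving out each sample in turn, the number of members called ranged from 0 to 1 in E0771, from 1 to 3 in E0771-LG and from 1 to 2 for the difference between knockdowns, where Krt18 is not tested without a sample of E0771-LG shPTN. Differences that turned sign ranged from −0.11 to 0.01 for Krt8 in E0771 and from −0.27 to 0.01 for Epcam between the knockdowns. In 4T1 tumors these were Cldn4 (−0.10 to 0.49) and Cldn7 (−0.22 to 0.73). In MMTV-PyMT tumors they were Krt7 (−0.26 to 0.20), Krt8 (−0.28 to 0.02), Krt18 (−0.37 to 0), Krt19 (−1.21 to 0.78), Cldn4 (−0.17 to 0.26), Cldn7 (−0.20 to 0.12) and Sfn (−0.33 to 0.25). Other 4T1 differences shrank without turning sign. Without replicate 2 of 3B10, Krt19 went from 0.55 to 0.21 and Krt7 from 0.76 to 0.46. Krt19 was 0.30 without replicate 3 of C44, and Cldn3 went from 0.61 to 0.30 without replicate 1 of 3B10. The cause was not tested.

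In the cell lines the members other than Krt8 and Epcam, and Krt18 in E0771-LG shPTN, had few or no reads, in libraries of 15.63 to 21.12 M reads against 16.26 to 19.25 M in MMTV-PyMT tumors. The depth of the 4T1 tumors is unknown. With 3 samples in a group and 1 shRNA construct, differences in the cells rest on a single pair of populations for each line, and members chosen with results known describe this list alone.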
